A study of Mus musculus with 20 samples.

Results

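The subject here is the set of genes that make ribosomes, 44 genes of nucleolar ribosome biogenesis followed in mouse liver with and without the polycomb protein EED, before and after surgical removal of most of the liver. They were chosen by name, as a listed set matched to the Ensembl identifiers of the files through GENCODE M21 symbols, and no measured value enters that rule, although the list was drawn up with earlier results of these data known. All 44 of 44 were found among the 46603 identifiers, and all 44 passed the filter on low counts that left 14661 genes to test. By role, the set holds 4 genes of rRNA synthesis, 3 nucleolar scaffold proteins and chaperones, 5 proteins of small nucleolar ribonucleoprotein particles (snoRNPs), 13 of the small subunit processome, 4 of the late maturation of the small subunit and 15 of large subunit assembly.

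Ribosomes are built in the nucleolus, where RNA polymerase I transcribes a long precursor rRNA that snoRNPs modify and a large processome folds and cuts into the small and large subunit precursors. Assembly factors, GTPases, helicases and methyltransferases then carry the precursors through the nucleus to the cytoplasm. A cell that is about to grow and divide needs more ribosomes, and after partial hepatectomy (PHx) the hepatocytes left behind enlarge and re-enter the cell cycle. Many of these genes are known targets of the transcription factor MYC. The libraries were made from poly(A) RNA, so they measured the mRNAs of these factors and not the rRNA itself.

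All mice were male, aged 2 months, of the strain labelled C57BL6/J. The wild type (WT) mice were C57BL/6J animals from a vendor. The knockout mice, EedHepKO (written KO), carried Alb:Cre, a Cre recombinase under the albumin promoter, together with Eed alleles whose loxP sites flank exons 3 and 6. EED is a core subunit of polycomb repressive complex 2 (PRC2), which methylates histone H3, and the albumin promoter directs Cre mainly to hepatocytes. Whether Eed was deleted in other liver cells was not measured. Each genotype had 5 mice, each sampled at baseline from lobes 1, 2 and 3 taken out at PHx, which removes most of the liver, and again from lobes 4, 5 and 6 at 30 h (1 mouse per genotype), 40 h (2 mice) or 48 h (2 mice). That gave 4 groups of 5 liver samples: WT baseline, WT after PHx, KO baseline and KO after PHx. Genotype cannot be told apart from the origin of the mice, nor PHx from the lobes sampled. Mice are named by the numbers of the labels (WT2, KO12), and 1 WT baseline sample has no mouse number and is called WT baseline replicate 1.

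Total counts ran from 21634890 to 30461351 per library. Eed checked the labels: it measured 16.8 ± 1.09 CPM (SD, n = 5) in WT baseline, 18.4 ± 3.98 in WT after PHx, 5.64 ± 1.44 in KO baseline and 4.62 ± 1.14 in KO after PHx, and no KO liver reached a WT liver of its stage. CPM are counts per 1000000 on totals scaled by the trimmed mean of M values (TMM). The TMM factors differed by group, from 0.6697 to 0.8058 in WT baseline against 0.9831 to 1.187 in KO baseline, so the choice of scaling matters below. Hepatocyte markers were abundant in every library, with 11 matched markers summing to 139900 to 163400 CPM in WT baseline and 88590 to 120000 in KO baseline. Markers of other cells moved with genotype at baseline: 10 stellate and fibroblast markers summed to 169.4 to 277.2 CPM in WT and 454.8 to 634.7 in KO, with 7 of 10 called higher, and 10 macrophage markers to 181.9 to 309.8 and 445.2 to 564, with 4 of 10 called higher. The sums of 10 cholangiocyte markers were 34.79 to 81.98 CPM in WT and 91.22 to 423.4 in KO, with 3 of 9 tested called higher, and of the hepatocyte markers 3 of 11 were called lower. After PHx the cholangiocyte markers summed to 37.45 to 271.6 CPM in WT and 187.6 to 812.7 in KO, with 7 of 9 called higher, and the stellate and fibroblast markers to 185.6 to 253.7 and 296.1 to 539.6, with 5 of 10 called higher. In the same comparison 3 of 10 macrophage markers were higher and 2 of 11 hepatocyte markers lower. No marker of these 4 lists was at 0 in a whole group, and the part of cell composition in the results below was not tested.

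Promoter sequence was available for 38 of the 44 genes as RefSeq windows of assembly GRCm38.p6, from 250 bases before the transcription start to 50 bases from it on. No window was held for Npm1, Fbl, Wdr36, Rrp12, Bop1 and Rrs1. The windows were searched for the E-box CACGTG, the DNA motif that MYC and MAX bind, whose letters read the same on both strands. It was found in 8 of 38 members (21.1%), against 8.09% of the 27025 genes with a window. The sites are shown because many of these genes are known MYC targets and Myc itself was measured. Each is written 5′ to 3′ on the strand of the gene, with the motif in capitals.
Mybbp1a, GRCm38.p6 chr11:72441355-72441376, plus strand: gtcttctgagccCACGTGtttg
Wdr43, GRCm38.p6 chr17:71616220-71616249, plus strand: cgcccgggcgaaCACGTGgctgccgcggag
Imp4, GRCm38.p6 chr1:34439696-34439725, plus strand: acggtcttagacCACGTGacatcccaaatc
Utp20, GRCm38.p6 chr10:88826765-88826789, minus strand: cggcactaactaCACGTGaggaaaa
Pno1, GRCm38.p6 chr11:17211540-17211564, minus strand: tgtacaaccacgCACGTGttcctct
Tsr1, GRCm38.p6 chr11:74898092-74898121, plus strand: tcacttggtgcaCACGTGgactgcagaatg
Pes1, GRCm38.p6 chr11:3963965-3963994, plus strand: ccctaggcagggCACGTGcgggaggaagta
Nop2, GRCm38.p6 chr6:125131811-125131840, plus strand: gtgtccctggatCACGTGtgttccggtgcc
Of the 8 genes, Wdr43, Imp4 and Utp20 belong to the small subunit processome, Pno1 and Tsr1 to late small subunit maturation, Pes1 and Nop2 to large subunit assembly, and Mybbp1a to rRNA synthesis. In 6 of them the motif begins within the first 50 transcribed bases, and in Imp4 and Nop2 it begins 121 and 60 bases before the start. A match shows only that these letters are in the window, and binding was not measured. Of the 8 genes 5 rose after PHx in KO by the test given below, as did 29 of all 44, and Imp4, Pno1 and Pes1 did not pass.

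In WT baseline the members covered a wide range of levels. Per kilobase of exon, taken as all annotated exons of a gene joined, Npm1 was highest at 43.6 CPM per kb. It was followed by Imp3 at 39.4, Pno1 at 23.9 and Ncl at 17.7. The lowest were Rrp1b at 0.647 CPM per kb, Wdr12 at 1.38 and Polr1a at 1.57. This order depends on the annotated length, which was 11955 bases for Wdr12, 11871 for Polr1a, 10188 for Ncl and 924 for Imp3. That length can exceed the length of the mRNA present. Without the division by length Ncl was highest, at 180.4 CPM. Mean levels that are neighbours in this order were not tested against each other.

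A summary of the 44 genes per library, the median over members of log2(CPM + 1) minus the WT baseline mean, placed KO baseline livers lowest. WT baseline livers ran from -0.18 to 0.14 and KO baseline livers from -0.44 to -0.26, with no overlap. After PHx the WT livers stood at 0.13 at 30 h, 0.45 and 0.02 at 40 h and 1.03 and 0.02 at 48 h. KO livers stood at 0.91 at 30 h, -0.23 and 0.03 at 40 h and 0.67 and 0.47 at 48 h. Livers of 1 genotype and 1 time differed by as much as the genotypes did, most of all WT4 and WT5 at 48 h. With library size alone as the scaling the KO baseline mean moved from -0.39 to 0.06 and the KO mean after PHx from 0.37 to 1.06. Under that scaling, which moved the median of all genes for KO against WT at baseline from -0.03 to 0.45, the baseline livers overlapped, at -0.35 to 0.20 in WT and -0.07 to 0.17 in KO.

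**Figure D1:**
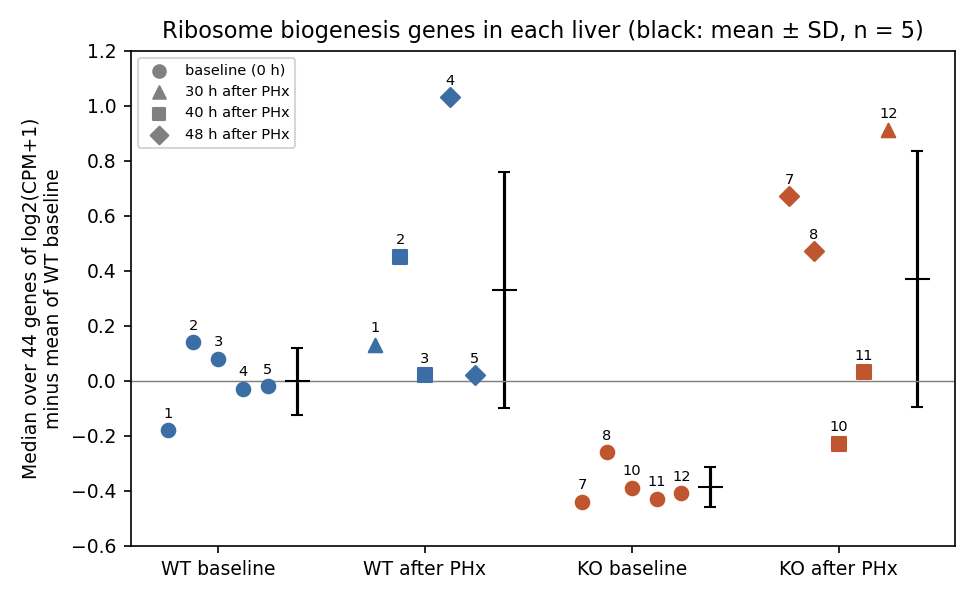
Summary of the 44 ribosome biogenesis genes in each of 20 livers. The y axis is the median over the genes of log2(CPM + 1) minus the WT baseline mean, each point is a liver with its mouse or replicate number, the shape gives the hours after PHx, and black bars are mean ± SD (n = 5). KO baseline livers lie between -0.44 and -0.26 under TMM scaling, an offset that goes to a mean of 0.06 with library size alone, and livers after PHx spread from -0.23 to 1.03.

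Most of the calls among the members were in the response to PHx in KO livers. Of the 44 genes, 29 rose and 1 fell after PHx in KO, against 17.5% of all tested genes called higher and 12.1% called lower, by edgeR's quasi-likelihood test with Benjamini-Hochberg adjusted p under 0.05. The median log2 change of the members was 0.94 and 42 of 44 were positive, while the median over all tested genes was 0.10. In WT livers 3 members rose (Nop56, Noc4l and Rrp1b) and 0 fell, against 11.4% and 8.68% of all genes, with a median of 0.42 against 0.04 for all genes. In WT 38 of 44 members were positive compared with 7751 of 14661 genes, and 16 of 44 had an unadjusted p under 0.05 compared with 4986 of 14661, in either direction. With library size alone 26 members rose in WT and 40 in KO, against 25.9% and 27.7% of all genes, with medians of 0.77 and 1.19, as that scaling moved the median of all genes to 0.40 and 0.37. DESeq2 called 7 members higher in WT and 34 in KO, against 15.5% and 21% of all genes. With the mouse as a block, over the 9 mice numbered at both stages, the WT count fell to 0 higher and the KO count to 26, against 5.9% and 10.8% of all genes, and with 30 h left out they were 8 and 26, against 12.7% and 16.2%. Leaving out 1 liver at a time gave 1 to 7 higher in WT (1 without WT2, WT4 or WT baseline replicates 1, 3 or 4, and 7 without WT3 or WT5) and 25 to 37 in KO. In KO 24 of the 29 genes were called under all 19 alternatives, and Bms1, Dkc1, Nip7, Npm1 and Tsr1 were lost under at least 1. Beside this, cell type markers moved after PHx. Of 11 hepatocyte markers 2 fell in each genotype, and of 3 tested erythroid markers 1 fell in each. In KO 5 of 9 tested cholangiocyte markers rose and 5 of 6 tested lymphocyte markers fell, while 3 of 10 macrophage markers fell and 1 rose, 3 of 10 endothelial markers fell and 1 rose, and 2 of 10 stellate and fibroblast markers fell. In WT 1 of 9 cholangiocyte markers rose, 3 of 6 lymphocyte and 2 of 10 endothelial markers fell, and 2 of 10 macrophage markers rose and 1 fell. Their part in the result was not tested. Bulk tissue cannot tell apart fewer cells of a type and less RNA per cell.

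**Figure D2:**
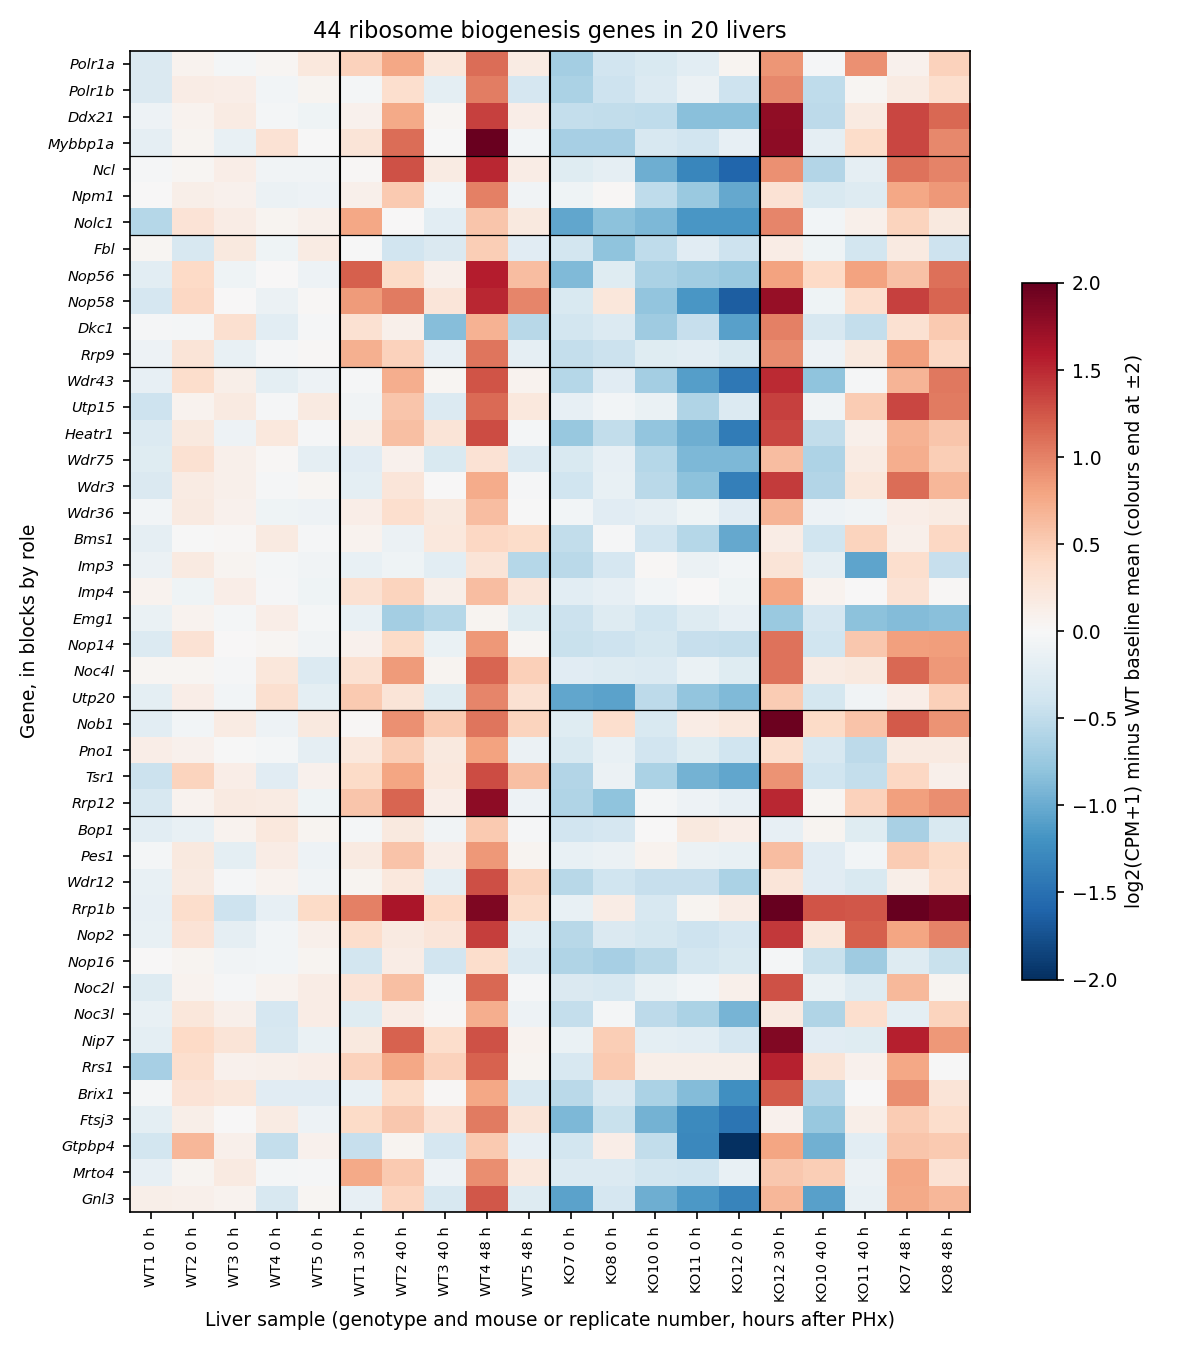
Each of the 44 genes (rows, in blocks by role) in each of 20 livers (columns, by group, with hours after PHx). Colour is log2(CPM + 1) minus the WT baseline mean under TMM scaling, red above and blue below, with colours ending at ±2. The KO baseline columns are blue for most genes, an offset whose median over genes goes, as a mean over livers, from -0.39 to 0.06 with library size alone. The columns of WT2 at 40 h, WT4 at 48 h, KO12 at 30 h and KO7 and KO8 at 48 h are above 0 in 38 to 44 of the 44 genes. The baseline column of WT2 is also above 0 in 38.

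The difference between both responses was not called for any member. By edgeR 0 members passed in either direction, against 0.164% of all genes called higher and 0.225% lower, with 10 of 44 at an unadjusted p under 0.05 compared with 1957 of 14661 genes. The median difference (KO minus WT) was 0.46 and 39 of 44 were positive, against a median of 0.00 over all genes. DESeq2 and the fit with a time term each called 1 member higher, Nolc1, against 1.3% and 0.232% of all genes, and leaving out KO10 after PHx gave 4 (Nolc1, Nop14, Wdr3 and Wdr75). So 29 calls in KO and 3 in WT do not show that the genotypes responded differently.

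Before surgery, 5 members were lower in KO than in WT (Ftsj3, Heatr1, Nolc1, Nop16 and Utp20) and 0 were higher, against 4.89% and 11.1% of all genes. The median log2 difference was -0.46, 42 of 44 were negative and 18 had an unadjusted p under 0.05 compared with 4468 of 14661 genes, and the median over all genes was -0.03. In 17 of 44 members all 5 KO livers lay below all 5 WT livers, against 12.2% of all genes. This direction depends on the scaling: with library size alone the members' median was 0.01, with 1 called higher (Imp4) and 0 lower, against 24% and 0.771% of all genes, because that scaling moved the median of all genes from -0.03 to 0.45. Relative to all genes the members' median was -0.43 under TMM and -0.44 under library size alone. A fit of only the 10 baseline livers called 26 members lower, against 18% of the genes in that fit, DESeq2 called 7, against 6.15%, and leaving out 1 liver at a time gave 3 without any of the 5 WT livers, KO7, KO10 or KO11, 4 without KO12 and 7 without KO8.

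After PHx few members were called between the genotypes. Of the members, 1 was higher in KO (Rrp1b) and 1 lower (Emg1), against 16% and 8.2% of all genes, with a median of -0.01 against -0.01 for all genes. No member had all KO livers above or below all WT livers, against 7.05% and 2.97% of all genes. With a term for time 0 members passed in either direction, against 15.1% of all genes higher and 9.88% lower, and with the 30 h samples left out 0 were higher and 1 lower (Tsr1), against 15.1% and 6.85%. Library size alone gave 7 higher and 0 lower, against 26.6% and 2.02% of all genes, as it moved the median of all genes to 0.37, and leaving out 1 liver at a time gave 0 to 5 higher (0 without WT1, WT3, WT5, KO7 or KO12, and 5 without KO10) and 0 to 2 lower (2 without KO10).

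**Figure D3:**
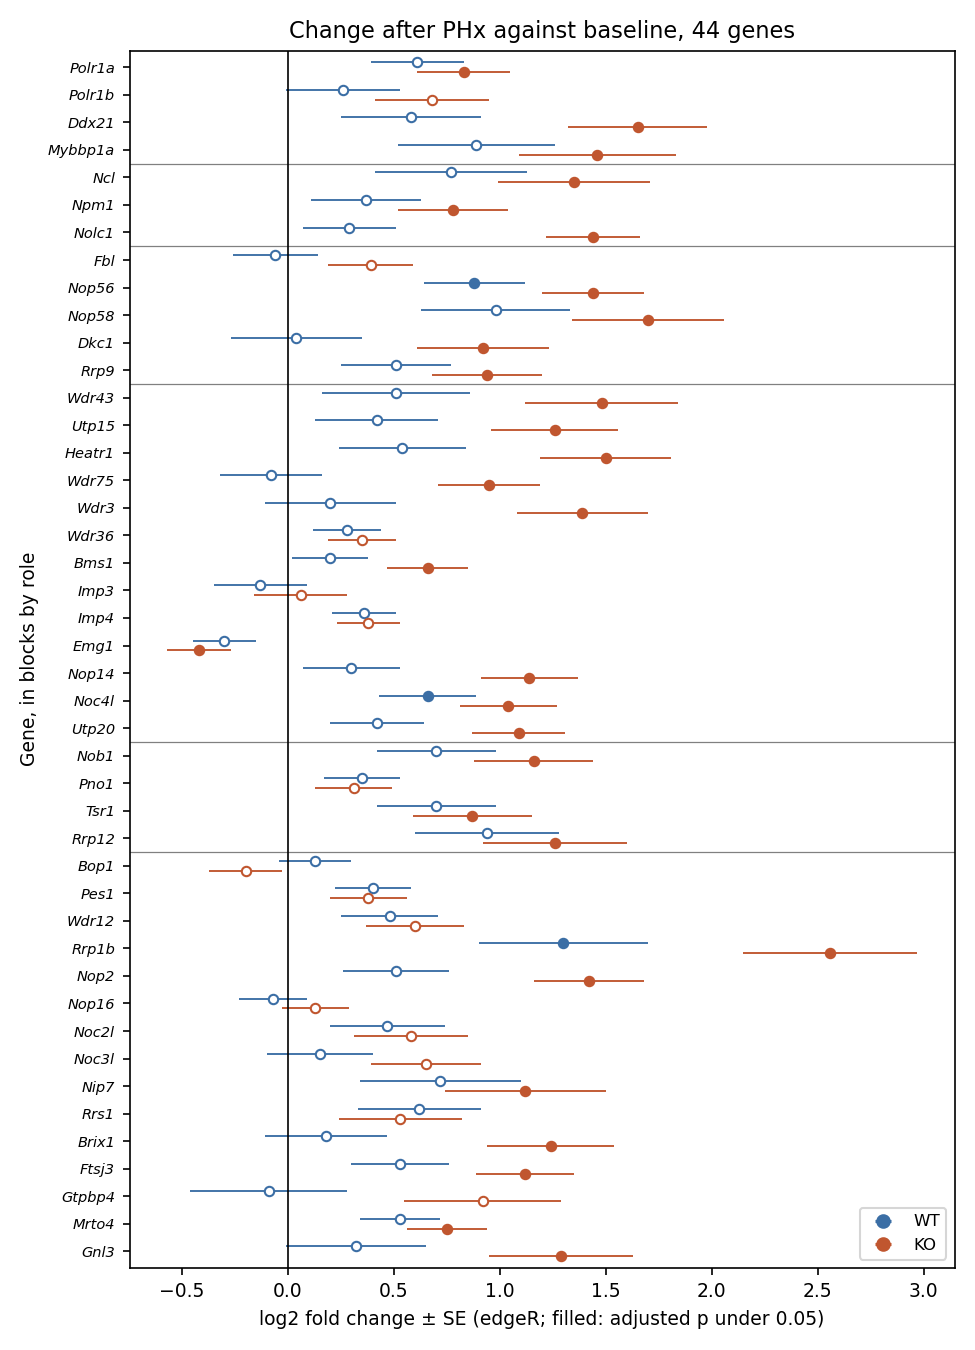
Log2 fold change after PHx against baseline for each of the 44 genes, in WT (blue) and KO (orange), with SE bars from the edgeR fit (n = 5 livers per group) and filled points at an adjusted p under 0.05. In KO 29 genes are filled to the right of 0 and Emg1 to the left, and in WT Nop56, Noc4l and Rrp1b are filled.

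In the values per liver that follow, each list runs in the order 30 h, 40 h, 40 h, 48 h and 48 h for livers after PHx (WT1 to WT5, and KO12, KO10, KO11, KO7, KO8). Baseline values follow the same order of mice, the first WT value being WT baseline replicate 1. A log2 change is given ± SE.

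Among the genes of rRNA synthesis, 3 of 4 rose after PHx in KO and none passed in WT. Polr1a, the largest subunit of RNA polymerase I (ENSMUSG00000049553, mm10 chromosome 6, 71909053 to 71984935, plus strand, protein coding), measured 15.02, 19.6, 17.96, 19.2 and 21.5 CPM at baseline and 25.9, 32.2, 21.9, 41.4 and 20.9 after PHx in WT. KO livers held Polr1a at 19.4, 14.9, 15.9, 11.2 and 14.03 CPM at baseline and 34.8, 18.1, 35.9, 19.7 and 25.9 after PHx. In both genotypes 4 of 5 livers after PHx were above every baseline liver, the exceptions being WT5 and KO10. The log2 change of Polr1a was 0.61 ± 0.22 (edgeR adjusted p 0.0591) in WT and 0.83 ± 0.22 (edgeR adjusted p 0.0107) in KO. Ddx21, a nucleolar RNA helicase, rose by a log2 of 1.65 ± 0.33 (edgeR adjusted p 0.00239) in KO and changed by 0.58 ± 0.33 (edgeR adjusted p 0.219) in WT. Mybbp1a, a nucleolar Myb-binding protein with an E-box just after its start, rose by 1.46 ± 0.37 (edgeR adjusted p 0.00778) in KO against 0.89 ± 0.37 (edgeR adjusted p 0.0901) in WT. For Polr1b, the other large subunit of the polymerase, the KO change of 0.68 ± 0.27 (edgeR adjusted p 0.0624) did not pass.

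All 3 scaffold proteins and chaperones rose in KO. Ncl (nucleolin, an RNA-binding protein of the nucleolus, ENSMUSG00000026234, mm10 chromosome 1, 86344719 to 86359400, minus strand, protein coding) measured 177, 184, 198, 172 and 171 CPM at baseline and 184, 437, 202, 515 and 200.2 after PHx in WT. KO livers held Ncl at 59.2, 91.1, 72.5, 153 and 158 CPM at baseline and 339.9, 119.5, 158, 384 and 358 after PHx. Each KO baseline liver was below every WT baseline liver, and after PHx WT2, WT4, KO12, KO7 and KO8 stood at 339.9 CPM or more while the other livers stayed at 202 or less. The log2 change of Ncl was 0.77 ± 0.36 (edgeR adjusted p 0.137) in WT and 1.35 ± 0.36 (edgeR adjusted p 0.011) in KO, and the baseline difference -0.76 ± 0.36 (edgeR adjusted p 0.161) did not pass. Npm1 (nucleophosmin, a chaperone of ribosomal proteins) measured 117, 126, 123, 107 and 108 CPM at baseline and 124, 168, 112, 235 and 110.1 after PHx in WT. KO livers held Npm1 at 56.4, 81.2, 69, 109 and 118 CPM at baseline and 142, 93.9, 97.2, 199 and 212 after PHx. Its high livers were again WT2 and WT4 and, in KO, KO12, KO7 and KO8, the only 3 KO livers after PHx above every KO baseline liver. The log2 change of Npm1 was 0.37 ± 0.26 (edgeR adjusted p 0.347) in WT and 0.78 ± 0.26 (edgeR adjusted p 0.0326) in KO.

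Nolc1, a phosphoprotein that binds snoRNPs in the nucleolus (ENSMUSG00000015176, mm10 chromosome 19, 46075863 to 46085530, plus strand, protein coding), had the lowest baseline difference of the set. WT livers held Nolc1 at 23.5, 43.04, 39.4, 36.9 and 38.03 CPM at baseline and 61.6, 35.7, 30.4, 52.6 and 40.7 after PHx. KO livers held Nolc1 at 15.3, 18.6, 15.3, 16.7 and 19.6 CPM at baseline and 70.9, 34.2, 38.2, 48.6 and 40.6 after PHx. Every KO baseline liver was below every WT baseline liver, the nearest WT value being replicate 1, and all 5 KO livers after PHx were above all 5 KO baseline livers. Its baseline difference was -1.08 ± 0.22 (edgeR adjusted p 0.00225), its change after PHx 1.44 ± 0.22 (edgeR adjusted p 0.000492) in KO and 0.29 ± 0.22 (edgeR adjusted p 0.371) in WT, and the difference of responses 1.15 ± 0.31 (edgeR adjusted p 0.109). The baseline call held under 15 of 16 alternatives and was lost with library size alone (adjusted p 0.0521), while the KO response held under all 19.

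Of the 5 snoRNP proteins 4 rose in KO and 1, Nop56, in WT. Fbl (fibrillarin, the methyltransferase of box C/D snoRNPs) was the exception, with 14.2, 10.8, 16.1, 12.98 and 15.6 CPM at baseline and 13.8, 10.3, 11.1, 19.8 and 11.7 after PHx in WT. KO livers held Fbl at 10.1, 9.41, 11.7, 10.4 and 7.48 CPM at baseline and 15.4, 12.97, 10.5, 15.7 and 10.1 after PHx. Its groups overlapped in all comparisons, and the change after PHx was -0.06 ± 0.20 (edgeR adjusted p 0.867) in WT and 0.39 ± 0.20 (edgeR adjusted p 0.139) in KO. Nop58, a core protein of the same particles, measured 20.9, 35.7, 26.8, 24.4 and 27.1 CPM at baseline and 48.8, 55.3, 31.7, 77.1 and 53.4 after PHx in WT. KO livers held Nop58 at 7.79, 14.9, 11.3, 21.3 and 31.3 CPM at baseline and 91.5, 24.9, 33.8, 70.03 and 60.97 after PHx. In each genotype 4 of 5 livers after PHx were above every baseline liver, all but WT3 and KO10. Its change was 0.98 ± 0.35 (edgeR adjusted p 0.0559) in WT and 1.70 ± 0.36 (edgeR adjusted p 0.00302) in KO, the second highest KO response of the set.

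Dkc1 (dyskerin, the pseudouridine synthase of box H/ACA snoRNPs) measured 15.4, 15.1, 19.7, 13.3 and 15.3 CPM at baseline and 19.5, 16.9, 8.26, 26.1 and 10.3 after PHx in WT. KO livers held Dkc1 at 6.81, 9.21, 11.1, 11.9 and 12.7 CPM at baseline and 32.3, 12.3, 11.01, 19.4 and 22.99 after PHx. The KO baseline livers were all below the WT baseline livers, and WT livers after PHx fell on both sides of their baseline, with WT4 above it and WT3 and WT5 below. Dkc1 changed by 0.04 ± 0.31 (edgeR adjusted p 0.943) in WT and rose by 0.92 ± 0.31 (edgeR adjusted p 0.031) in KO, a call lost under 8 of 19 alternatives. Nop56, the partner of Nop58, rose in WT by 0.88 ± 0.24 (edgeR adjusted p 0.0136) and in KO by 1.44 ± 0.24 (edgeR adjusted p 0.000839), where no liver after PHx overlapped the baseline. Idh3b overlaps its exons on the opposite strand at a mean of 151.5 CPM and moved the other way, by a log2 of -0.66 in WT and -0.56 in KO. Rrp9, which binds the U3 snoRNA, rose in KO by 0.94 ± 0.26 (edgeR adjusted p 0.0126) and not in WT (0.51 ± 0.26, edgeR adjusted p 0.172).

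The small subunit processome, which binds the precursor as it is transcribed, had 9 of 13 members higher and 1 lower after PHx in KO, and 1 (Noc4l) higher in WT. Heatr1, a scaffold of the UtpA subcomplex (ENSMUSG00000050244, mm10 chromosome 13, 12395027 to 12440289, plus strand, protein coding), measured 16.2, 22.9, 18.4, 23.2 and 19.5 CPM at baseline and 21.6, 30.8, 23.8, 50.5 and 19.2 after PHx in WT. KO livers held Heatr1 at 6.901, 11.1, 9.64, 11.3 and 13.9 CPM at baseline and 51.5, 13.8, 21.4, 32.9 and 29.6 after PHx. All KO baseline livers were below all WT baseline livers, and 4 KO livers after PHx, all but KO10, exceeded every KO baseline liver. Its baseline difference of -0.92 ± 0.30 (edgeR adjusted p 0.0442) was lost under 12 of 16 alternatives, while the KO response of 1.495 ± 0.31 (edgeR adjusted p 0.00253) held under all 19; the WT response was 0.54 ± 0.30 (edgeR adjusted p 0.214). Lgals8, which overlaps Heatr1 on the opposite strand at a mean of 117.5 CPM, was also called lower in KO at baseline, by a log2 of -0.75, and the strand setting of the counts is not given in the sources used here.

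Utp15, another UtpA protein, measured 6.76, 9.85, 10.7, 9.08 and 10.7 CPM at baseline and 8.76, 14.1, 7.53, 21.7 and 10.9 after PHx in WT. KO livers held Utp15 at 7.56, 8.38, 5.82, 8.16 and 8.87 CPM at baseline and 25.7, 8.77, 13.7, 24.9 and 20.1 after PHx. KO7 and KO12 stood above every WT liver after PHx, and KO10 alone of the KO livers after PHx stayed within the KO baseline range. It rose by 1.26 ± 0.30 (edgeR adjusted p 0.005) in KO, changed by 0.42 ± 0.29 (edgeR adjusted p 0.329) in WT, and after PHx the genotypes differed by 0.56 ± 0.29 (edgeR adjusted p 0.169), which did not pass. Wdr3, of the UtpB subcomplex, measured 13.7, 19, 18.3, 16.7 and 17.4 CPM at baseline and 14.6, 20.3, 17.1, 28.9 and 16.7 after PHx in WT. KO livers held Wdr3 at 5.92, 11.4, 9.098, 12.5 and 15.2 CPM at baseline and 46.01, 10.9, 20.1, 37.8 and 27.3 after PHx. WT livers after PHx overlapped their baseline except WT2 and WT4, and 4 KO livers were above theirs, all but KO10. Wdr3 had the second highest difference of responses among members at 1.19 ± 0.43 (edgeR adjusted p 0.233), from 0.20 ± 0.31 (edgeR adjusted p 0.698) in WT and 1.39 ± 0.31 (edgeR adjusted p 0.00398) in KO. Gdap2 overlaps Wdr3 on the opposite strand at a mean of 39.9 CPM and was also called higher after PHx in KO, by a log2 of 0.62.

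Imp3, which joins the U3 snoRNA to the precursor, showed no shared change. It measured 33.4, 41.2, 37.7, 35.2 and 34.6 CPM at baseline and 32.5, 34.3, 31.2, 43.8 and 24.1 after PHx in WT. KO livers held Imp3 at 34.8, 36.8, 33.5, 24.7 and 28.6 CPM at baseline and 43.6, 31.9, 17.01, 46.1 and 26.1 after PHx. Livers after PHx lay on both sides of the baseline in each genotype, and its changes were -0.13 ± 0.22 (edgeR adjusted p 0.713) in WT and 0.06 ± 0.22 (edgeR adjusted p 0.863) in KO. Of the other members, Wdr43 (1.48 ± 0.36, edgeR adjusted p 0.00605), Nop14 (1.14 ± 0.23, edgeR adjusted p 0.00252), Utp20 (1.09 ± 0.22, edgeR adjusted p 0.00241), Noc4l (1.04 ± 0.23, edgeR adjusted p 0.0037), Wdr75 (0.95 ± 0.24, edgeR adjusted p 0.008) and Bms1 (0.66 ± 0.19, edgeR adjusted p 0.0133) rose in KO. Wdr36 and Imp4 did not pass in either genotype, at 0.35 ± 0.16 (edgeR adjusted p 0.092) and 0.38 ± 0.15 (edgeR adjusted p 0.0668) in KO. Utp20 was lower in KO at baseline by -0.92 ± 0.22 (edgeR adjusted p 0.0075), a call lost with library size alone.

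Emg1, a methyltransferase that acts on the small subunit rRNA (ENSMUSG00000004268, mm10 chromosome 6, 124704085 to 124712178, minus strand, protein coding), was the only member called lower in a response. It measured 38.8, 44.6, 41.5, 46.4 and 41.4 CPM at baseline and 38.1, 25.97, 28.4, 43.9 and 35.8 after PHx in WT. KO livers held Emg1 at 37.6, 31.9, 35.5, 31.2 and 35.2 CPM at baseline and 24.9, 33.3, 23.7, 22.8 and 23.2 after PHx. All KO baseline livers were below all WT baseline livers, and after PHx 4 of 5 livers in each genotype were below every baseline liver, all but WT4 and KO10. Emg1 fell after PHx in KO by 0.42 on the log2 scale (SE 0.15, edgeR adjusted p 0.04), was at -0.30 ± 0.15 (edgeR adjusted p 0.156) in WT, and was lower in KO than in WT after PHx at -0.43 ± 0.15 (edgeR adjusted p 0.042). The KO response lost its call under 13 of 19 alternatives and the difference after PHx under 12 of 18, library size alone among them for both. Lpcat3, on the opposite strand at a mean of 117.4 CPM, was not called in either comparison.

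For late small subunit maturation, which ends in the cytoplasm, 3 of 4 members rose in KO and 0 in WT. Nob1, the endonuclease that makes the final cut at the end of the small subunit rRNA, measured 6.76, 7.599, 9.06, 7.29 and 9.27 CPM at baseline and 8.11, 15.8, 11.9, 17.8 and 11.1 after PHx in WT. KO livers held Nob1 at 9.34, 6.28, 8.93, 6.54 and 10.3 CPM at baseline and 33.9, 10.6, 12.3, 19.96 and 15.6 after PHx. Baseline genotypes overlapped, 4 of 5 WT livers after PHx (all but WT1) and all 5 KO livers after PHx exceeded their baselines, and KO12 was highest. It changed by 0.70 ± 0.28 (edgeR adjusted p 0.085) in WT and rose by 1.16 ± 0.28 (edgeR adjusted p 0.00618) in KO, with a baseline difference of 0.05 ± 0.28 (edgeR adjusted p 0.933).

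Tsr1, a GTPase-like factor of the cytoplasmic small subunit precursor, measured 16.8, 31.5, 25.4, 19.6 and 24.5 CPM at baseline and 30.4, 40.4, 26.7, 58.4 and 35.3 after PHx in WT. KO livers held Tsr1 at 10.7, 14.4, 11.5, 15.1 and 21.2 CPM at baseline and 43.8, 17.2, 16.2, 31.1 and 24.9 after PHx. The KO livers KO8, KO10 and KO11 lay below every WT liver after PHx. Its change was 0.70 ± 0.28 (edgeR adjusted p 0.0818) in WT and 0.87 ± 0.28 (edgeR adjusted p 0.0261) in KO, the latter lost under 9 of 19 alternatives, and KO minus WT after PHx was -0.52 ± 0.28 (edgeR adjusted p 0.18). Srr overlaps Tsr1 on the opposite strand at a mean of 84.4 CPM and was called lower in KO after PHx, by a log2 of -1.11. Rrp12, an export factor, rose in KO by 1.26 ± 0.34 (edgeR adjusted p 0.0115) and did not pass in WT (0.94 ± 0.34, edgeR adjusted p 0.0565). Pno1, the partner of Nob1, did not pass in either response, at 0.35 ± 0.18 (edgeR adjusted p 0.167) in WT and 0.31 ± 0.18 (edgeR adjusted p 0.189) in KO.

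In large subunit assembly 7 of 15 members rose and 0 fell after PHx in KO, and 1 (Rrp1b) rose in WT. Rrp1b, a nucleolar protein of the RRP1 family (ENSMUSG00000058392, mm10 chromosome 17, 32036100 to 32062865, plus strand, protein coding), had the largest changes of the 44 genes. In WT, Rrp1b measured 4.23, 6.45, 3.396, 4.22 and 6.65 CPM at baseline and 10.7, 17.2, 6.74, 20.4 and 6.56 after PHx. KO livers held Rrp1b at 5.49, 3.69, 5.07, 4.28 and 5.45 CPM at baseline and 56.9, 13.04, 12.8, 38.6 and 20.7 after PHx. Baselines overlapped between genotypes, all KO livers after PHx were above every KO baseline liver, and KO12, KO7 and KO8 were above every WT liver after PHx. Rrp1b rose by 1.30 ± 0.40 (edgeR adjusted p 0.0265) in WT and 2.56 ± 0.41 (edgeR adjusted p 0.000655) in KO, and after PHx it was higher in KO than in WT by 1.203 ± 0.39 (edgeR adjusted p 0.0309), a call lost under 8 of 18 alternatives. The WT call of Rrp1b was lost under 6 of 19 alternatives, the mouse block among them. The difference of responses, 1.26 ± 0.56 (edgeR adjusted p 0.332), did not pass. Hsf2bp overlaps its exons on the opposite strand at a mean of 1.05 CPM and was higher in KO at baseline by a log2 of 2.80.

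Ftsj3, a methyltransferase of large subunit precursors (ENSMUSG00000020706, mm10 chromosome 11, 106249142 to 106256079, minus strand, protein coding), measured 42.5, 52.99, 48.9, 54.5 and 45.1 CPM at baseline and 63.6, 71.5, 59.7, 101 and 58.1 after PHx in WT. KO livers held Ftsj3 at 16.99, 24.7, 19.4, 25.6 and 35.6 CPM at baseline and 51.8, 28.2, 52.9, 69.8 and 62.6 after PHx. It was the only member of the 44 with all 5 WT livers after PHx above all 5 WT baseline livers, against 6.91% of all genes, and all KO baseline livers were below all WT baseline livers. Its baseline difference was -0.997 ± 0.23 (edgeR adjusted p 0.00527), lost with library size alone, and its change was 1.12 ± 0.23 (edgeR adjusted p 0.00249) in KO and 0.53 ± 0.23 (edgeR adjusted p 0.101) in WT. In KO, 11 of 44 members had all livers after PHx above all baseline livers, against 6.19% of all genes, and 0 had them all below, against 7.73%.

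Bop1, Pes1 and Wdr12 form the PeBoW complex, which is needed for large subunit rRNA processing, and none of the 3 passed in either response. Bop1 measured 25.9, 27.1, 31.6, 35.1 and 31.4 CPM at baseline and 29.2, 34.6, 28.6, 43.8 and 29.4 after PHx in WT. KO livers held Bop1 at 33.05, 30.2, 34.7, 22.8 and 23.6 CPM at baseline and 26.6, 31.1, 25.3, 18.9 and 24.2 after PHx. After PHx 4 of 5 KO livers, all but KO10, were below every WT liver, and the genotypes differed by -0.39 ± 0.17 (edgeR adjusted p 0.0959), which did not pass. The change of Bop1 was 0.13 ± 0.17 (edgeR adjusted p 0.628) in WT and -0.20 ± 0.17 (edgeR adjusted p 0.387) in KO. Pes1 measured 29.3, 34.4, 25.99, 33.4 and 27.8 CPM at baseline and 34.1, 44.97, 33.5, 55.5 and 31.1 after PHx in WT. KO livers held Pes1 at 26.9, 31.5, 27.5, 26.9 and 27.7 CPM at baseline and 46.5, 25.5, 28.99, 42.9 and 39.3 after PHx. Its baselines overlapped, WT2, WT4, KO12, KO7 and KO8 exceeded their baselines, and its change was 0.40 ± 0.18 (edgeR adjusted p 0.125) in WT and 0.38 ± 0.18 (edgeR adjusted p 0.112) in KO. Wdr12 changed by 0.48 ± 0.23 (edgeR adjusted p 0.144) in WT and 0.60 ± 0.23 (edgeR adjusted p 0.0532) in KO.

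Gtpbp4, a GTPase of large subunit precursors, measured 33.02, 68.4, 46.2, 30.6 and 45.9 CPM at baseline and 30.96, 44.8, 33.98, 62.3 and 38.1 after PHx in WT. KO livers held Gtpbp4 at 9.62, 30.3, 17.1, 33.2 and 47.2 CPM at baseline and 75.3, 21.7, 36.9, 63.9 and 62.3 after PHx. WT livers after PHx stayed within the WT baseline range, and KO12, KO7 and KO8 were above every KO baseline liver. Its change was -0.09 ± 0.37 (edgeR adjusted p 0.894) in WT and 0.92 ± 0.37 (edgeR adjusted p 0.0666) in KO, neither of which passed, and 7 pseudogenes carry its name, so its counts may have lost reads that map to several places. Rrs1, a partner in the assembly of the central protuberance, measured 11.8, 24.4, 20.5, 20.5 and 21.1 CPM at baseline and 26.6, 33.5, 26.6, 44.4 and 19.9 after PHx in WT. KO livers held Rrs1 at 20.8, 20.9, 20.9, 15.1 and 28.1 CPM at baseline and 57.2, 22.96, 20.4, 33.3 and 19.1 after PHx. Its groups overlapped between genotypes, and it had the highest baseline difference of the set at 0.11 ± 0.29 (edgeR adjusted p 0.843), which did not pass.

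The other large subunit genes that rose in KO were Nop2, an rRNA methyltransferase (1.42 ± 0.26, edgeR adjusted p 0.0013), Gnl3, the GTPase nucleostemin (1.29 ± 0.34, edgeR adjusted p 0.00927), Brix1 (1.24 ± 0.30, edgeR adjusted p 0.00569), Nip7 (1.12 ± 0.38, edgeR adjusted p 0.033) and Mrto4, which prepares the stalk of the large subunit (0.75 ± 0.19, edgeR adjusted p 0.00791). In WT the same genes were at 0.51 ± 0.25 (edgeR adjusted p 0.16), 0.32 ± 0.33 (edgeR adjusted p 0.535), 0.18 ± 0.29 (edgeR adjusted p 0.706), 0.72 ± 0.38 (edgeR adjusted p 0.185) and 0.53 ± 0.19 (edgeR adjusted p 0.0547). Nop16 was lower in KO at baseline by -0.51 ± 0.16 (edgeR adjusted p 0.0393), a call lost under 12 of 16 alternatives, and changed by 0.13 ± 0.16 (edgeR adjusted p 0.559) after PHx in KO. Noc2l and Noc3l, which travel with the precursor, did not pass in KO at 0.58 ± 0.27 (edgeR adjusted p 0.105) and 0.65 ± 0.26 (edgeR adjusted p 0.0595).

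**Figure D4:**
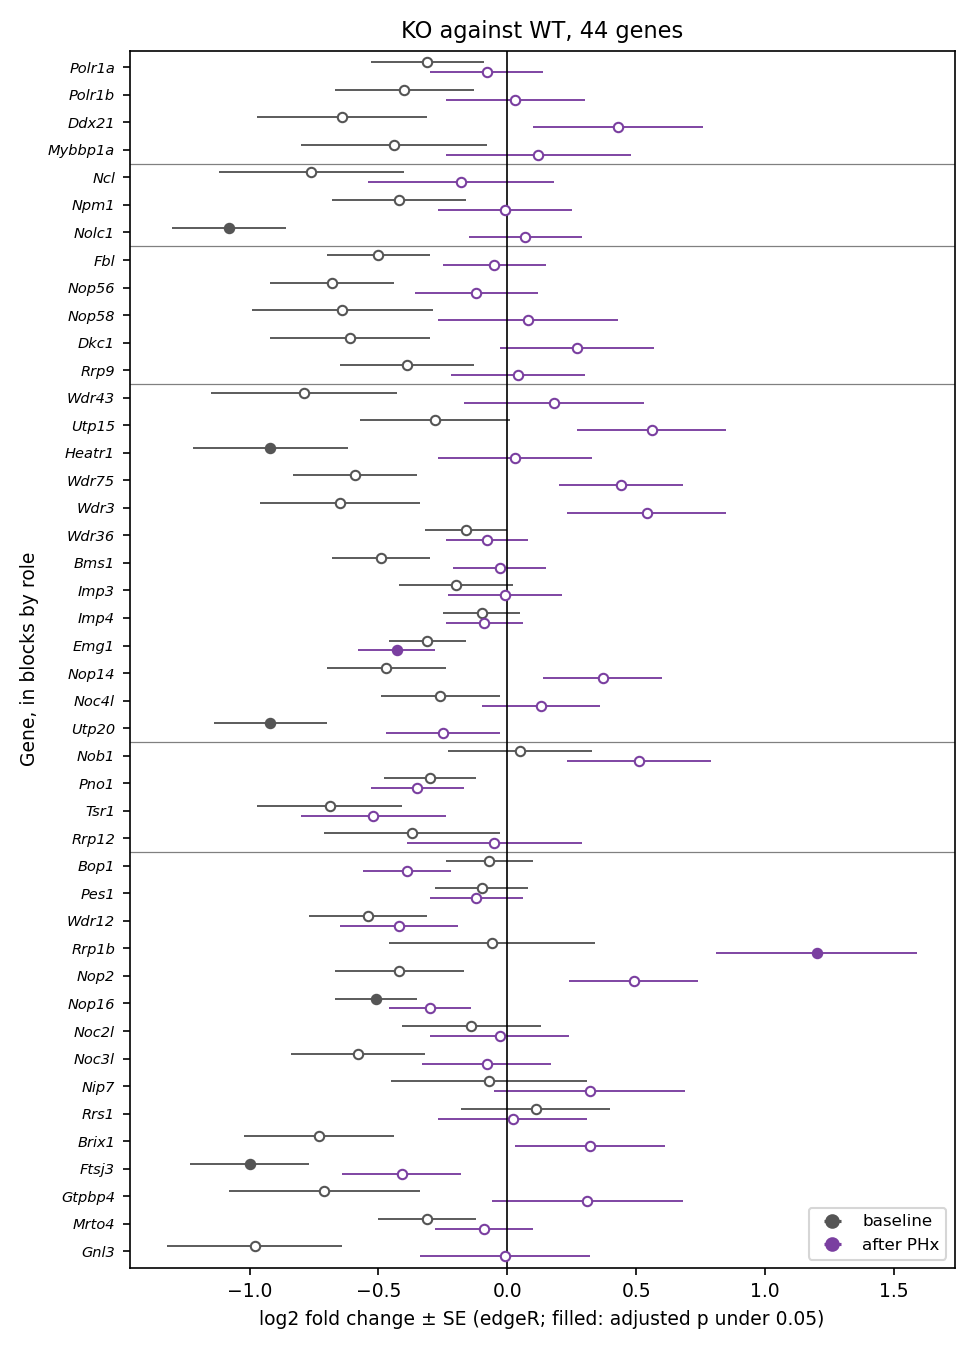
Log2 fold change of KO against WT for each of the 44 genes, at baseline (grey) and after PHx (purple), with SE bars from the edgeR fit (n = 5 livers per group) and filled points at an adjusted p under 0.05. At baseline 42 of 44 points lie left of 0 and 5 are filled, and under library size alone, which moves the median of all genes from -0.03 to 0.45, 23 of 44 lie right of 0 (relative to all genes the members' median is -0.43 and -0.44). In the plotted fit after PHx Rrp1b is filled on the right and Emg1 on the left.

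By time, KO was compared with WT at 40 h and 48 h, with 2 mice per genotype at each time in a fit whose spread is shared by all 20 livers. At 40 h 0 members were higher and 1 lower, Pno1 at -0.79 ± 0.24 (edgeR adjusted p 0.0402), against 8.61% and 4.68% of all genes, with a median of -0.34 against 0.04 for all genes. Without WT2 or without KO11 none was lower, and without WT3 4 were (Ncl, Nip7, Pno1 and Tsr1). At 48 h 0 were higher and 3 lower, Emg1 at -0.79 ± 0.19 (edgeR adjusted p 0.00848), Bop1 at -0.77 ± 0.26 (edgeR adjusted p 0.0417) and Wdr12 at -0.72 ± 0.25 (edgeR adjusted p 0.0485), against 13.7% and 10.7% of all genes, with a median of -0.07 against -0.02 for all genes. Without WT4 4 members were higher and 1 lower, with a median of 0.46, and without WT5 0 were higher and 5 lower, with a median of -0.55. Library size alone left 0 higher and 0 lower at 40 h, against 19.8% and 1.42% of all genes, and 1 higher (Rrp1b) and 0 lower at 48 h, against 20.7% and 3.76%. It turned the members' median to 0.20 at 40 h and 0.35 at 48 h, where those of all genes were 0.55 and 0.41. At 30 h, with 1 mouse per genotype, no test was made, and Rrp1b for example measured 10.7 CPM in WT1 and 56.9 in KO12.

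Within single mice the response varied widely. In the 9 mice numbered at both stages, the median log2 change of the 44 genes was 0.34 in WT2, -0.06 in WT3, 1.07 in WT4 and 0.00 in WT5. In KO it was 1.53 in KO12, 0.11 in KO10, 0.63 in KO11, 1.13 in KO7 and 0.77 in KO8. Among WT mice WT4 had 43 of 44 members up and 24 of them by more than 1 on the log2 scale, and WT3 and WT5 had 18 and 22 up and none by that much. KO12 had 42 up with 32 by more than 1, and KO10 had 30 up with 2.

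Livers with high ribosome biogenesis genes were mostly those with low mitosis genes, a pattern seen after the values were known. On the same scale, the median over 16 mitosis genes was -0.17 in WT4, 0.39 in KO12, 0.36 in KO7, 1.27 in KO8 and -0.17 in WT2, the 5 livers after PHx with the highest ribosome biogenesis summary (0.45 to 1.03). In the other 5 it was 3.66 in WT1, 1.73 in WT3, 6.23 in WT5, 5.61 in KO10 and 2.47 in KO11, where the ribosome biogenesis summary ran from -0.23 to 0.13. With library size alone the summary of KO11 was 0.96, above WT2 at 0.65, so this split is not the same under that scaling. KO baseline livers had both a low ribosome biogenesis summary and mitosis values of 1.08 to 3.17.

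**Figure D5:**
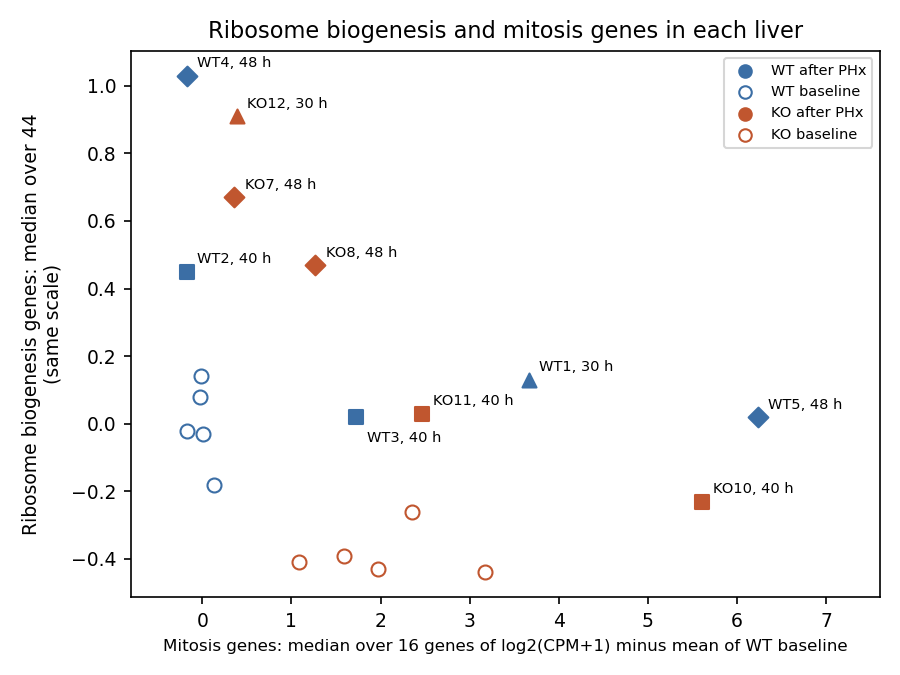
Summary of the 44 ribosome biogenesis genes (y) against that of 16 mitosis genes (x) in each of 20 livers, both as the median of log2(CPM + 1) minus the WT baseline mean. Open points are baseline, filled points after PHx, triangles 30 h, squares 40 h and diamonds 48 h. Filled points with a y of 0.45 or more have an x of 1.27 or less, a split that changes for KO11 and WT2 with library size alone.

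Other genes of the same process were counted from a list drawn up from general knowledge, with earlier results of these data known. Of 111 other ribosome biogenesis genes, all tested, 63 rose and 1 fell after PHx in KO, with a median of 0.71, and 7 rose and 0 fell in WT, with a median of 0.24. Of all genes 17.5% rose in KO and 11.4% in WT. With library size alone 86 rose in KO and 47 in WT, with medians of 0.95 and 0.60, against 27.7% and 25.9% of all genes. In KO the highest called genes were Taf1d, a subunit of the RNA polymerase I selectivity factor, at 2.92 ± 0.65 (edgeR adjusted p 0.00382), and Gnl2, a nucleolar GTPase, at 2.03 ± 0.42 (0.00255). The gene that fell was Nop10, of box H/ACA snoRNPs, at -0.45 ± 0.16 (0.0361). In WT the highest called genes were Eif6, which keeps large subunits from joining early, at 1.76 ± 0.34 (edgeR adjusted p 0.00157), and Nle1 at 1.29 ± 0.44 (0.0448). Genes that were not called could be higher. Among the other RNA polymerase I genes the highest WT change was 1.67, while the only called gene there was Polr1e at 0.94 ± 0.28 (0.0233). At baseline 1 was higher in KO and 10 lower, against 11.1% and 4.89% of all genes, with a median of -0.34. With library size alone 3 were higher and 1 lower, against 24% and 0.771% of all genes. The median relative to all genes was -0.31 under TMM and -0.32 under library size alone. Utp3 was called for the difference of responses, at 1.05 ± 0.23 (edgeR adjusted p 0.0454), a call lost with library size alone.

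The 82 cytosolic ribosomal protein genes, whose products the factors above assemble, gave 0 calls in either direction after PHx in KO. Of all genes 17.5% were higher and 12.1% lower. The median of the 82 in KO was 0.15, with 7 at an unadjusted p under 0.05. Library size alone called 31 higher in KO, against 27.7% of all genes. In WT 4 rose and 1 fell, against 11.4% and 8.68% of all genes, with a median of 0.18. Under library size alone these became 55 higher and 0 lower, against 25.9% and 3.97%, with a median of 0.53. Only uniquely mapped reads were counted, and in WT baseline Rpl27 measured 4.055 CPM, Rpl12 6.735 and Rps4x 280.1. Reads of these genes lost to close copies were not measured. In KO against WT 10 of the 82 were lower at baseline, against 4.89% of all genes, with a median of -0.28. After PHx 7 were lower, against 8.2% of all genes, with a median of -0.32. Relative to all genes these medians were -0.25 and -0.31, and -0.25 and -0.33 with library size alone. Under that scaling 0 were lower in either comparison, against 0.771% and 2.02% of all genes. Of 18 DNA replication genes 15 rose in WT and 4 in KO (17 and 9 with library size alone), and of 16 mitosis genes 16 rose in WT and 0 in KO. Of all genes 11.4% rose in WT and 17.5% in KO (25.9% and 27.7% with library size alone). The mitosis rise in WT was not shared by all livers, as the mitosis summary was -0.17 in WT2 and WT4. In KO that summary reached 5.61 in KO10, and the KO baseline livers already stood at 1.08 to 3.17. For the difference of responses edgeR called 0 of the 18 and 0 of the 16, against 0.164% of all genes higher and 0.225% lower. An unadjusted p under 0.05 was found for 1 of the 18 and 14 of the 16, compared with 1957 of 14661 genes.

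Myc, the transcription factor whose motif was searched above, measured 5.08 ± 1.75 CPM (SD, n = 5) in WT baseline and 21.03 ± 19.7 in WT after PHx, with values there from 4.54 to 50.8. In KO it measured 23.5 ± 14.1 CPM at baseline and 34.7 ± 22.9 after PHx. It was higher in KO at baseline by a log2 of 2.21 ± 0.65 (edgeR adjusted p 0.0245), rose in WT by 2.05 ± 0.64 (0.0301) and was at 0.56 ± 0.61 in KO (0.5). The difference of responses was -1.49 ± 0.88 (0.476). Other partners of the MYC and MAX network moved both ways. Of 11 listed genes, Myc among them, 2 rose and 1 fell after PHx in each genotype. Of all genes 17.5% rose and 12.1% fell in KO, and 11.4% and 8.68% in WT. Mxd3, at 0.05135 CPM in WT baseline, rose in WT by 5.70 ± 1.64 (edgeR adjusted p 0.0191). It was lower in KO at 48 h at -4.47 ± 1.55 (0.0453). Mlx was lower in KO at baseline at -0.54 ± 0.15 (0.0187) and after PHx at -0.46 ± 0.15 (0.0297). Max rose after PHx in KO by 0.80 ± 0.23 (edgeR adjusted p 0.0153), and Mxd4, which like Mxd1 competes with MYC for MAX, was lower after PHx at -1.09 ± 0.18 (0.000783) in KO and -1.01 ± 0.18 (0.000944) in WT. Mxd1 rose after PHx in KO by 2.57 ± 0.62 (edgeR adjusted p 0.00616), where values ran from 5.59 to 148 CPM, and was higher in KO than in WT after PHx by 3.23 ± 0.64 (0.00119).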

How the data were processed

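Poly(A) RNA of 20 liver samples was sequenced paired-end. The deposited files, 1 for each library, list unnormalised read counts by Ensembl identifier, made by the authors from uniquely mapped reads on mm10, per the series' design text. The submitters' processing notes name FastQC 0.11.5 and Trimmomatic 0.36, and the design text names fastp 0.20.0. The aligner, counting program, strand setting and annotation are not given in the sources used here. So it is not known whether reads of genes that overlap on opposite strands (19 of the 44 members) were told apart. As only uniquely mapped reads were counted, close copies lose reads.

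From the counts, edgeR 4.0.16 in R 4.3.3 was run with TMM scaling, the filterByExpr filter and the two-sided quasi-likelihood test. All 20 samples shared 1 fit with 4 group means, and a second fit had a mean per genotype and time. Adjusted p are Benjamini-Hochberg over all genes tested, with a threshold of 0.05, and SE is the log2 fold change divided by the root of its F statistic. CPM use TMM-scaled totals, and the summary per library takes log2 of CPM plus 1. Precision is limited by the 5 mice per group. Alternatives were DESeq2 1.42.0, other scalings and filters, only the samples compared, a time term, a mouse block and leaving out each liver. Leaving out the 30 h samples was chosen after seeing the data. The fits were tested on simulated data.

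The pairing comes from the labels, which say that both samples of a mouse share its number. Residual correlations ran from -0.06 to 0.20 within the 9 mice and from -0.23 to 0.28 between mice. The members and gene lists were chosen with earlier results of these data known. Values per liver are given for 9 members set by role and, in each of 5 comparisons, for the 2 highest and 2 lowest log2 changes. Other lists show the 2 highest and 2 lowest called genes, or a part of these, and Myc. Genes called or lost are named besides.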

Additional observations from a re-analysis of the deposited data

Results flagged for a closer look

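In 84 groups of 5 livers, each the values of 1 gene named per liver or of the summary, 5 held a liver far from the other 4, and chance alone gives about 1 in 20. The summary of the 44 genes in KO baseline was -0.26 in KO8, with the other 4 livers at -0.44 to -0.39. Emg1 in KO after PHx measured 33.3 CPM in KO10, with the others at 22.83 to 24.95. Nolc1 in WT baseline measured 23.5 CPM in replicate 1, with the others at 36.9 to 43.0. Rrs1 in WT baseline measured 11.8 CPM in the same replicate, with the others at 20.5 to 24.4. Pes1 in KO baseline measured 31.5 CPM in KO10, with the others at 26.9 to 27.7.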

How the results depend on the processing

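Counts of members called were compared across the alternatives. Percentages in brackets are the shares of all genes called in the same direction and setting. For KO against WT at baseline 5 were lower (4.89%) and 0 higher (11.1%). DESeq2 size factors as scaling (4.11%) and no filter (1.35%) each gave 3 lower, and only the samples compared 26 (18%). Library size alone gave 0 lower (0.771%) and 1 higher (24%). For KO against WT after PHx 1 was higher (16%) and 1 lower (8.2%). Library size alone gave 7 (26.6%) and 0 (2.02%), and no filter left 0 lower (3.72%). Only the samples compared (8.12% and 1.57%) and the time term (15.1% and 9.88%) left 0 and 0. Without the 30 h samples 0 were higher (15.1%). In the WT response 3 were higher (11.4%). Library size alone gave 26 (25.9%), only the samples compared 9 (13%), and without the 30 h samples 8 (12.7%). DESeq2 gave 7 (15.5%), its size factors 6 (12.4%), the time term 5 (11.6%) and the replicate block by mouse 0 (5.9%). In the KO response the 1 lower gene (12.1%) became 0 with library size alone (6.55%), no filter (5.7%) or only the samples compared (7.54%). It also became 0 with the block (11.7%) or no 30 h samples (10.4%). The 29 higher (17.5%) stayed within 25 to 40, with shares from 9.34% without a filter to 27.7% with library size alone. For the difference of responses, 0 higher (0.164%) became 1 with DESeq2 (1.3%) or the time term (0.232%). At 40 h the 1 lower gene (4.68%) became 0 with library size alone (1.42%) or no filter (2.38%). At 48 h library size alone gave 1 higher (20.7%) and 0 lower (3.76%). The mean summary moved with library size alone in KO baseline from -0.39 to 0.06 and in KO after PHx from 0.37 to 1.06.

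Leaving out 1 liver gave 3 to 7 lower at baseline, 0 to 5 higher and 0 to 2 lower after PHx, 1 to 7 higher in the WT response, 25 to 37 higher and 0 to 1 lower in the KO response, 0 to 4 higher for the difference, 0 to 4 lower at 40 h, and 0 to 4 higher and 1 to 5 lower at 48 h. Shares of all genes in the fits that left out 1 liver are not given here, so those counts cannot be set against them. The paired fit used 9 mice. KO against WT allows no block, since each mouse has 1 genotype. Where a time leaves 1 liver in a group, it is assumed to vary like the others. Counts under 10 CPM, as for Rrp1b at baseline, carry more counting error. The causes of these shifts were not tested, apart from the scaling, which moves all genes.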
